A study of Mus musculus with 2 samples.

Results

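Hearts of 2 control mice were compared, 1 after caloric restriction (CR) and 1 after free feeding (ad libitum, AL), across the genes that could be measured in both. The comparison rests on 1 of the 2 arrays of the series, which carried the CR heart in the Cy3 channel and the AL heart in the Cy5 channel. The mice were male, of the C57BL/6J background and 6 months old, and the feeding had lasted 3 months, with restriction by 40%. They are labelled as the controls that belong to mice lacking Sirt1 in cardiomyocytes, and the labels do not say which alleles or Cre transgene the controls themselves carry, nor which promoter drives Cre in the knockout. Of 16390 genes with a symbol on the array, 12660 stood above the blank spots in both hearts and were compared. A further 520 genes were above the blanks in the CR heart only and 1029 in the AL heart only, 2180 were above them in neither, and Azin2 was left out because the scanner had marked its spot.

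Caloric restriction lowers energy intake without withholding nutrients, and is known for slowing ageing of many organs in rodents. The heart burns mostly fatty acids, and can shift towards glucose, ketone bodies and amino acids when supply changes. Its muscle cells turn over their proteins through the proteasome, through autophagy and through muscle ubiquitin ligases, and the balance between this breakdown and ribosomal synthesis sets the mass of the cell.

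Every value below is a difference between 2 hearts, with no replicate, no dye swap and no test. The spread between mice is unknown, and the diet, the mouse and the dye cannot be told apart. Values are normalized log2 signals of each heart and log2 CR over AL, and 1.5-fold is a log2 difference of 0.585. Each gene was read in 3 settings: the spot signal without its local background (the value given first throughout), the same with the local background subtracted, and the authors' deposited ratio. The sign was the same in all 3 for 65.8% of the genes compared. For 149 genes with several measured probes, the median difference between probes was 0.12 and the 90th percentile 0.42. The 25 genes of each direction named first were ranked by the smallest of their 3 values, among 6203 genes of at least median signal. Other genes were named as the extreme members of a pathway list, and some further members of the lists are given as examples chosen after their values were seen.

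In the first setting, which adds a constant of 50 scanner units and so draws dim genes towards 0, most differences were small. In it 100 of 12660 genes (0.79%) were at least 1.5-fold higher in the CR heart and 46 (0.363%) at least 1.5-fold lower. At 2-fold these counts were 10 (0.079%) and 3 (0.0237%). In all 3 settings together, 4144 genes (32.7%) were higher and 4190 (33.1%) lower, which is the background for the list counts below. That background takes in dim genes and was not matched to the signal of each list. The rank correlation of the first setting with the deposited ratios was 0.9 over all genes and 0.984 over those of at least median signal. With the local background subtracted it was 0.554 and 0.613. More genes passed 1.5-fold in the other settings, with 138 higher and 156 lower after subtraction of the local background and 1128 higher and 561 lower in the deposited ratios. The higher genes made up 68.5% of those past 1.5-fold in the first setting, 46.9% after subtraction of the local background and 84.8% when the array was centred on its median in place of loess, so the balance between the directions depended on the setting. Of the 100 genes that were at least 1.5-fold higher, 8 had the opposite sign with the local background subtracted, while 0 of the 46 lower genes did. In that setting 46 of the 100 higher and 25 of the 46 lower genes stayed past 1.5-fold, and in the deposited ratios 85 and 46 did.

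**Figure D1:**
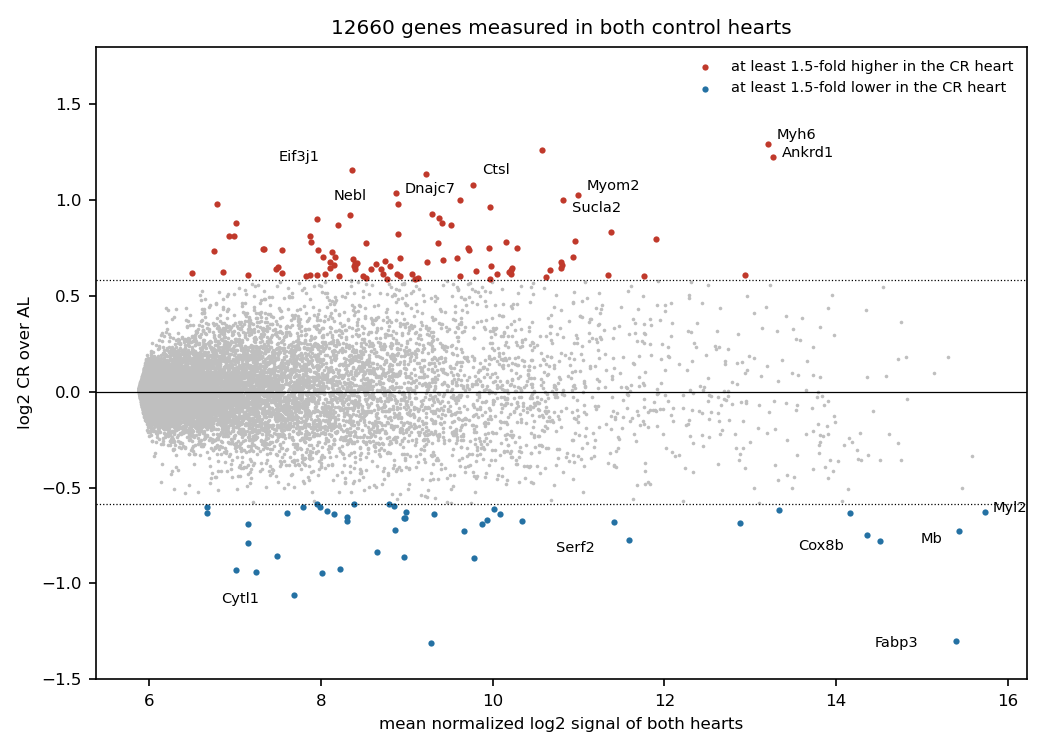
Log2 CR over AL (vertical) against the mean normalized log2 signal of the 2 control hearts (horizontal) for 12660 genes, 1 point per gene, with dotted lines at 1.5-fold. The 100 red and 46 blue points lie past those lines, and Myh6 (1.29), Ankrd1 (1.23) and Fabp3 (-1.30) are the genes farthest from 0 among those above a signal of 12, the value of Fabp3 being a bound because its AL spot was near the scanner limit.

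The upper end held genes of many functions, those of muscle and of protein synthesis being given with their lists below. Dnajc7, a co-chaperone that binds Hsp70 and Hsp90, stood at 8.35 in the AL heart and 9.39 in the CR heart, and its smallest value over the 3 settings was 1.04, second only to Ankrd1. Cetn3, a centrin of the centrosome, was measured at 7.88 in the AL heart and 8.80 in the CR heart, a difference of 0.92. Klf13, a Krüppel-like transcription factor with a role in heart development, was higher by 0.83 (8.48 in the AL heart and 9.31 in the CR heart). Prmt1, the main arginine methyltransferase of the cell, was higher by 0.78, and Matr3, a protein of the nuclear matrix that binds RNA, by 0.75. Stk39, a kinase that controls cation and chloride cotransporters, stood at 9.77 in the AL heart and 10.55 in the CR heart. Ccdc141, a coiled-coil protein, was higher by 0.75, and by 0.75 with the local background subtracted. Tmx1, a thioredoxin-related membrane protein of the endoplasmic reticulum, was higher by 0.96 and by 0.68 with the local background subtracted. Hscb, a mitochondrial co-chaperone for iron-sulphur cluster assembly, was higher by 0.69, Zfp931, a zinc finger protein, by 0.71, and Rogdi by 0.91. Each of these genes had a higher signal in the CR heart in all 3 settings, as the ranking required.

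The lower end held several abundant small proteins of heart muscle and genes of other cells, for which fewer cells of a type and less RNA per cell cannot be told apart in bulk RNA. Serf2, a small protein that promotes protein aggregation, stood at 11.97 in the AL heart and 11.20 in the CR heart. G0s2, the inhibitor of the triglyceride lipase Pnpla2 (ATGL), stood at 10.03 in the AL heart and 9.30 in the CR heart, a difference of -0.73, and Pnpla2 itself had the opposite sign at 0.45. The values of this enzyme and its inhibitor were 0.60 and -1.16 with the local background subtracted. Cytl1, a small secreted protein, stood at 8.22 in the AL heart and 7.16 in the CR heart, a difference of -1.06. Josd2, a deubiquitinase, differed by -0.87 and Tesc, a calcium-binding protein, by -0.68. Slc41a3, a mitochondrial magnesium transporter, was lower at -0.66, the mitochondrial protein Tmem242 at -0.69, and Naa38, an auxiliary subunit of an N-terminal acetyltransferase, at -0.64. The replication-dependent histone H2ac18 was at -0.67, the cell cycle regulator Cdk2ap2 at -0.64, and Crip1, a LIM domain protein, at -0.61. Retnla, a secreted product of alternatively activated macrophages, was at -0.93 and Mcpt8, a protease of basophils, at -0.59. Other lower genes of immune cells were H2-Aa and Cd74, of antigen presentation, at -1.31 and -0.67, and the signalling adaptor Tyrobp at -0.95. The lymphocyte surface protein Cd52 was at -0.94. The complement component C3, which is not particular to immune cells, was at -0.93. The subunits Cox8b and Cox7c of cytochrome c oxidase were at -0.78 and -0.75.

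**Figure D2:**
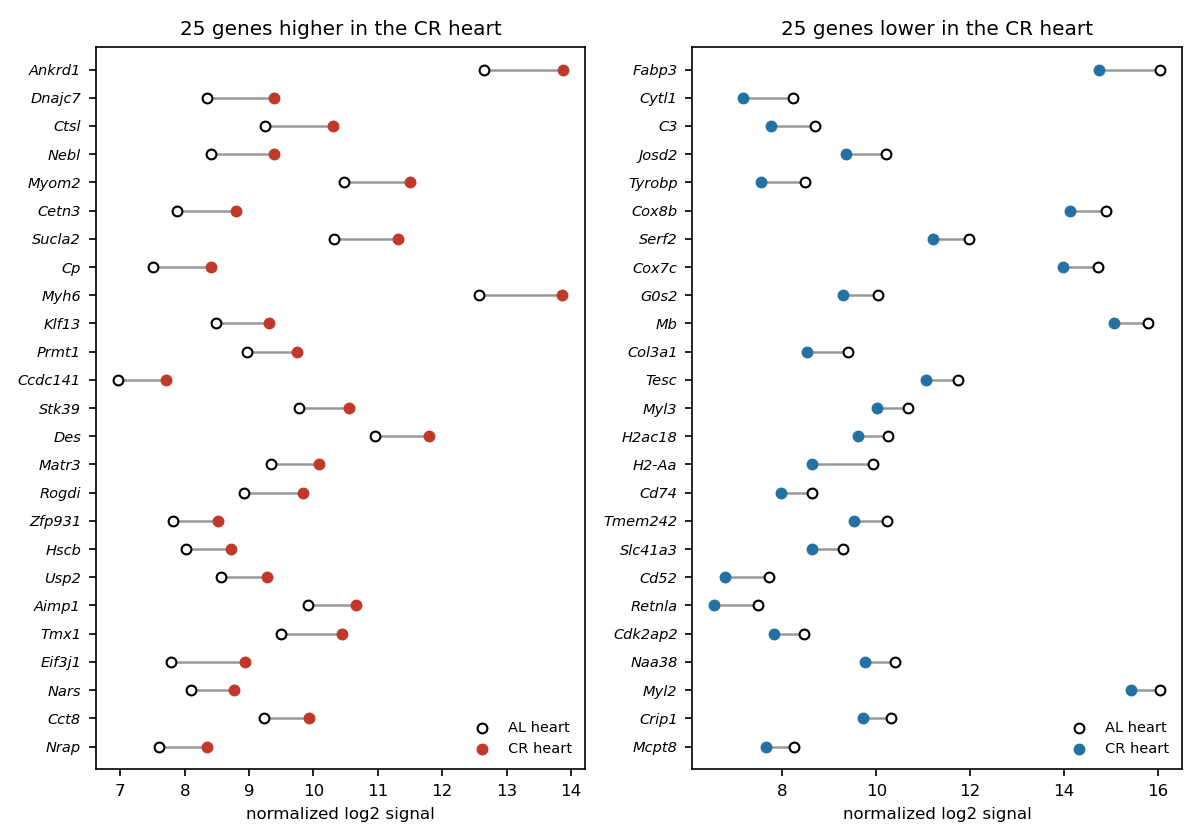
Normalized log2 signal of the AL heart (open points) and of the CR heart (filled points) for the 25 genes highest and the 25 lowest by their smallest value over the 3 settings, 1 line per gene. Genes are ordered by that smallest value, with Ankrd1 (1.23) and Fabp3 (-1.30) first and Nrap (0.74) and Mcpt8 (-0.59) last. The differences drawn are not in that order, and those of Myh6 (1.29) and H2-Aa (-1.31) are wider than that of Ankrd1.

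Most genes of protein synthesis were higher in the CR heart at 3 steps: ribosome assembly, charging of tRNA and initiation of translation. Of 44 translation factors compared, 32 were higher and 12 lower (median 0.13, or 0.06 with the local background subtracted), and 21 were higher in all 3 settings (47.7%, against 32.7% of all genes). The 5 that were at least 1.5-fold apart all belonged to initiation and all were higher. Eif4g1, the scaffold that joins the cap-binding protein to the small ribosomal subunit, stood at 7.76 in the AL heart and 8.44 in the CR heart. Eif3a, the largest subunit of the eIF3 complex, was at 7.57 in the AL heart and 8.18 in the CR heart, and both kept their sign with the local background subtracted (0.52 and 0.45). The eIF3 subunit Eif3e stood at 9.12 in the AL heart and 10.12 in the CR heart, and differed by 0.19 in that setting. Eif3c had 0.68 and -1.09, so that its direction depended on the setting, and Eif3j1 had 1 probe at 1.16 and others at -0.03 and 0.16. Among the other eIF3 subunits, Eif3d was at 0.40, Eif3h at 0.10 and Eif3f at -0.01. Eif4e, the cap-binding protein itself, was the lowest member at -0.29, and the elongation factors Eef2 and Eef1a1 were at 0.25 and -0.26.

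The promoters of Eif4g1 and Eif3a are shown because both hold the E-box CACGTG, a motif bound by Myc and other helix-loop-helix factors, near their start. Eif3c, Eif3e and Eif3j1, also past 1.5-fold, either held no E-box or had no promoter among those searched. The sequences are those of RefSeq (GRCm38.p6), 300 bases of which the last 50 follow the start, 5′ to 3′ on the strand of the gene, at chr16:20672477-20672776 (plus strand) and chr19:60790644-60790943 (minus strand), with each E-box in capitals.
Eif4g1: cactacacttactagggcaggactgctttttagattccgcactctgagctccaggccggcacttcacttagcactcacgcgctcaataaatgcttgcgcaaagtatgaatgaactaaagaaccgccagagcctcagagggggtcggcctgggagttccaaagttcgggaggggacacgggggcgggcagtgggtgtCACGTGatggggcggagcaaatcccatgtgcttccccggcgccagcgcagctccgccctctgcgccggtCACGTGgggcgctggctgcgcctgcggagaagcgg
Eif3a: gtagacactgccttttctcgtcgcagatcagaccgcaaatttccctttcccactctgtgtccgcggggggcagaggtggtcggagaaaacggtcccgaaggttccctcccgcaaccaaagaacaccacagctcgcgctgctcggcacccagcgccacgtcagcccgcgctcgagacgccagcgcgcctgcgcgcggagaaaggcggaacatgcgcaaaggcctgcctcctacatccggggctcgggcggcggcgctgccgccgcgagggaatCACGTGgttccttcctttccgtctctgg
Such a match, which reads the same on both strands, occurred in 26.5% of the 34 translation factor promoters found in the table, in 24.2% of 33 promoters of nucleolar genes, and in 9.76% of the promoters of all genes compared. It also occurred in 30.2% of lysosomal promoters, a list whose median was 0.01, and in 6.98% and 10.5% of the promoters of the higher and of the lower genes past 1.5-fold. Of 5 other motifs searched on both strands in the same windows, the antioxidant element TGACNNNGC occurred in 19.8% of the promoters of genes at least 1.5-fold higher, in 21.1% of the 38 promoters of genes at least 1.5-fold lower and in 14.5% of those of all genes compared. The cAMP element TGACGTCA, whose end can overlap the start of an E-box, occurred in 1.16%, 2.63% and 2.95%. The FOXO element GTAAACA and the ERR element TCAAGGTCA occurred in 0 of the 86 promoters of genes at least 1.5-fold higher that were found in the table, in 1 and 0 of the 38 of genes at least 1.5-fold lower, and in 2.61% and 0.236% of those of all genes compared. A match is a run of letters in this window, not a bound site.

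Aminoacyl-tRNA synthetases, which load each amino acid on its tRNA, were higher in 22 of 32 (median 0.13, or 0.10 with the local background subtracted), and 16 were higher in all 3 settings (50%). Nars, the enzyme for asparagine, stood at 8.09 in the AL heart and 8.76 in the CR heart, and Yars, the enzyme for tyrosine, at 7.91 in the AL heart and 8.51 in the CR heart. Aimp1, a scaffold of the cytosolic multi-synthetase complex, was higher by 0.75 and by 1.08 with the local background subtracted. Eprs (0.56), Qars (0.48) and Gars (0.46) lay below 1.5-fold, and Mars1 was at 0.66 but turned to -0.08 in that setting. Mitochondrial enzymes differed in sign: Iars2 was at 0.27, Yars2 at 0.03 and Lars2, the lowest of the list, at -0.40. Of the nucleolar and ribosome assembly genes, 29 of 40 were higher (median 0.11, or 0.07), and 21 were so in all 3 settings (52.5%). Ncl, nucleolin, which drives ribosomal RNA transcription and processing, stood at 9.58 in the AL heart and 10.33 in the CR heart. Rrp1, a factor of the large subunit, was higher by 0.61 but by 0.03 with the local background subtracted. Gnl3 (nucleostemin) was at 0.52 and Nop56, a core protein of the RNA methylation machinery, at 0.36, whereas Myc was at 0.12.

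**Figure D3:**
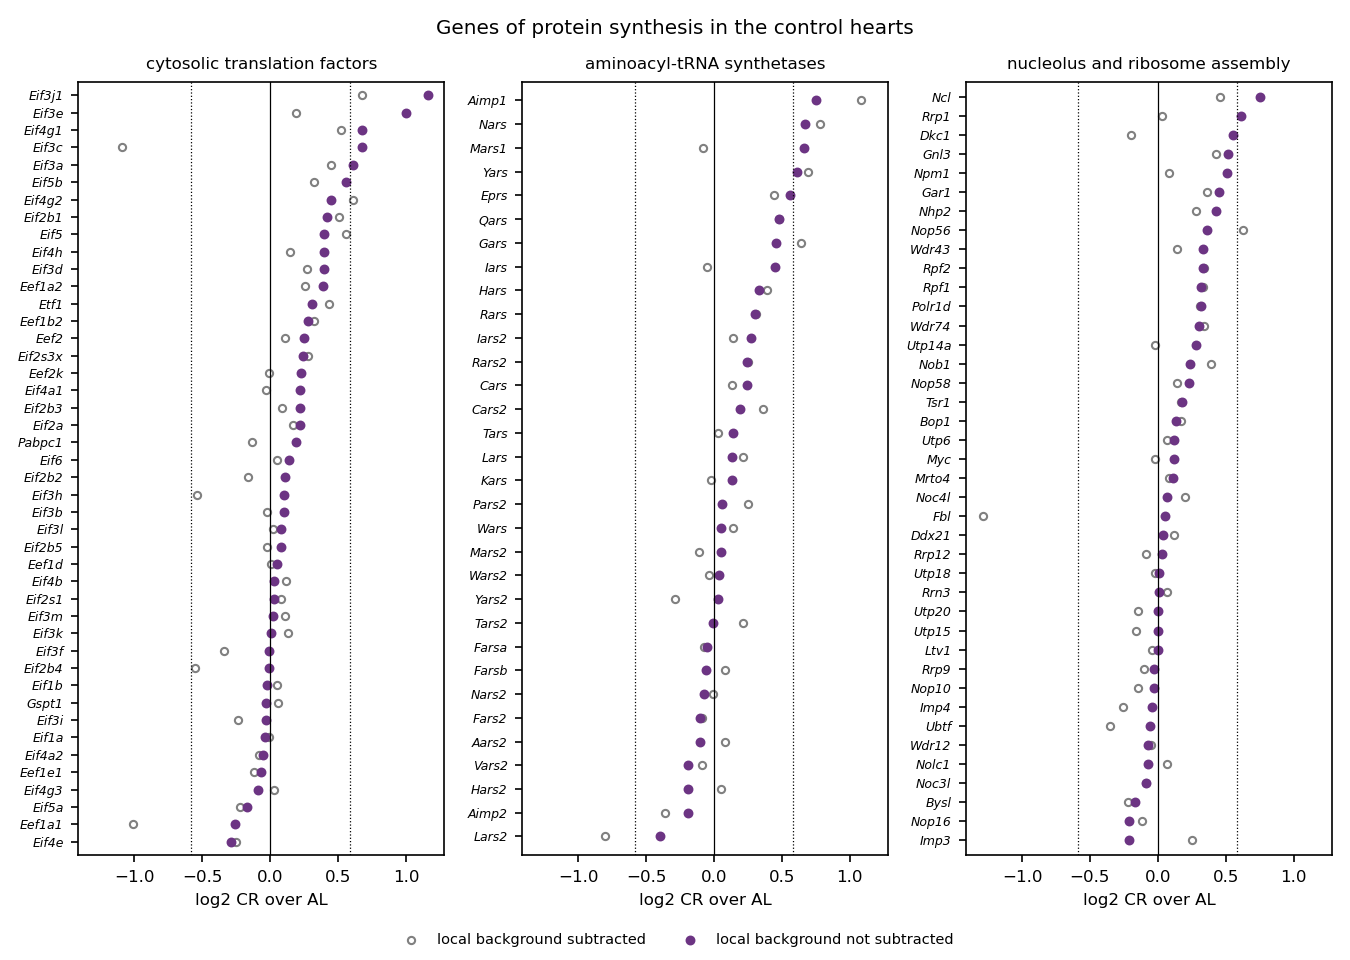
Log2 CR over AL (horizontal) of each measured translation factor, aminoacyl-tRNA synthetase and nucleolar gene, 1 row per gene, as filled points without and open points with subtraction of the local background, with dotted lines at 1.5-fold. Most filled points lie right of 0 in each panel, and Eif3c (0.68 and -1.09) shows the widest gap among the translation factors at or past 1.5-fold.

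Most genes of the proteasome and of the muscle ubiquitin ligases were higher too. Of 40 proteasome genes, 33 were higher and 7 lower, but the differences were small (median 0.14, or 0.10 with the local background subtracted and 0.04 in the deposited ratios), and 17 were higher in all 3 settings (42.5%). Psmc6, of the ATPase ring at the base of the regulatory particle, was the highest at 0.55. Of the other ATPases Psmc5 was at 0.46, Psmc2 at 0.41, Psmc3 at 0.35 and Psmc4 at 0.21, while Psmc1 was at 0.08. The inducible catalytic subunits of the immunoproteasome, Psmb8 (0.02) and Psmb9 (-0.05), were near 0, and Psmg1, an assembly chaperone, was the lowest at -0.16. Muscle ubiquitin ligases and ubiquitin genes were higher in 17 of 24 (median 0.15), with 15 higher in all 3 settings (62.5%). Fbxo32 (atrogin-1), the ubiquitin ligase of muscle atrophy, stood at 7.79 in the AL heart and 8.43 in the CR heart. Asb2, a ligase adaptor that targets filamins, stood at 9.90 in the AL heart and 10.54 in the CR heart, and with Usp2 (0.70) these were the 3 members past 1.5-fold. Another ligase of muscle atrophy, Trim63 (MuRF1) was at 0.32 and at 0.05 with the local background subtracted, and Mdm2, the ligase for p53, was the lowest at -0.35.

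Autophagy genes were divided, with 21 higher and 18 lower of 39 (median 0.02). The only members at least 1.5-fold apart were Sqstm1 (p62) and Optn (optineurin), which bring cargo to the autophagosome. Sqstm1 stood at 9.74 in the AL heart and 10.36 in the CR heart. Optn stood at 7.24 in the AL heart and 7.86 in the CR heart. Any other cargo receptors compared lay below 1.5-fold. Map1lc3a, an LC3 protein of the autophagosome membrane, was at -0.58 and Atg4d, a protease that processes this family, at -0.54. These 4 genes kept their signs in all 3 settings. The lysosome list had a median of 0.01, with 28 of 51 higher. Within it Ctsl, a cysteine protease of the lysosome, was higher by 1.08, Ctsf, a related protease, by 0.38, while Ctsb was at -0.23 and Ctsh at -0.24. Only Ctsl among the 51 lysosomal genes was at least 1.5-fold apart.

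Cytosolic chaperones were divided too, with 21 higher and 21 lower of 42 (median 0.00). Subunits of the cytosolic chaperonin, which folds actin and tubulin, were higher in 6 of the 6 listed and compared: Cct8 stood at 9.23 in the AL heart and 9.93 in the CR heart, and Cct2 was higher by 0.47, Cct5 by 0.33, Cct7 by 0.23, Cct4 by 0.20 and Cct3 by 0.11. Hspa4, a nucleotide exchange factor for Hsp70, stood at 9.08 in the AL heart and 9.76 in the CR heart. Unc45b, the myosin chaperone of muscle, was higher by 0.52 and Hspb7, the small heat shock protein of cardiac muscle, by 0.57. Several classic heat shock genes lay on the other side: Dnajb1 (Hsp40) stood at 8.63 in the AL heart and 7.97 in the CR heart, Hspa8 was at -0.33, Hspb1 at -0.18 and Hsp90aa1 at -0.10. The value of Hspa8 was 0.51 with the local background subtracted, so its direction depended on the setting. The heat shock element GAANNTTC, another of the 5 motifs and alike on both strands, was present in 8 of 35 chaperone promoters (22.9%), in 5.93% of the promoters of all genes compared and in 10.5% and 7.89% of those of the higher and of the lower genes past 1.5-fold. In the endoplasmic reticulum, Srp54a, the GTPase of the signal recognition particle, was higher at 8.97 in the AL heart and 9.85 in the CR heart, and Manf, a factor induced by stress of that compartment, lower at 9.22 in the AL heart and 8.50 in the CR heart. Its list had a median of -0.03, with 32 of 59 lower.

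For fuel use, most genes of the Krebs cycle and of the pyruvate dehydrogenase complex were higher, fatty acid handling was mixed, and most creatine and adenylate genes were lower. Krebs cycle enzymes were higher in 18 of 22 (median 0.17, 0.22 with the local background subtracted and 0.02 in the deposited ratios), and 10 were higher in all 3 settings (45.5%). Sucla2, the ATP-forming subunit of succinyl-CoA synthetase, stood at 10.32 in the AL heart and 11.32 in the CR heart, whereas Suclg2, its GTP-forming counterpart, was at 0.18 and their shared subunit Suclg1 at 0.09. Sdha, the catalytic subunit of succinate dehydrogenase, was higher by 0.55, and Sdhd, its small membrane anchor, was the lowest of the list at -0.25. Of the pyruvate dehydrogenase genes, 11 of 14 were higher (median 0.17, or 0.06 with the local background subtracted). Pdhb (12.02 in the AL heart and 12.59 in the CR heart) and Pdha1 (11.69 in the AL heart and 12.14 in the CR heart), both of the E1 enzyme, were higher together with Pdk4 (8.04 in the AL heart and 8.53 in the CR heart), the kinase that switches that enzyme off. The pyruvate carrier subunits Mpc1 and Mpc2 were at -0.03 and -0.32.

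Genes of glucose use were higher in 21 of 28 (median 0.08), and 14 were higher in all 3 settings (50%). The highest were enzymes of the later steps: Pkm, pyruvate kinase, stood at 9.36 in the AL heart and 10.09 in the CR heart, Gapdh at 7.76 in the AL heart and 8.49 in the CR heart and Eno3, the muscle enolase, at 12.95 in the AL heart and 13.51 in the CR heart. Gpi1, which acts early in the pathway, was higher by 0.55. The transporter of insulin-responsive uptake, Slc2a4 (GLUT4), was at 0.08 and the kinase Hk2 at -0.06. Ldhb, the lactate dehydrogenase subunit of heart muscle, was at 0.39 but at -4.43 with the local background subtracted, and Pgam1 was at -0.31 and 0.50. Gapdh, often used as a reference for loading, thus had a difference of 0.73 here, or 0.55 with the local background subtracted. Its only probe read far below the signal of Eno3 in both hearts, so it may report the transcript poorly. Glycogen genes were higher in 15 of 20 (median 0.09), among them Pygm, the muscle phosphorylase that breaks glycogen down, by 0.44. Ugp2, which makes the glucose donor for glycogen, was higher by 0.60 but by 0.04 with the local background subtracted, and Gys1, glycogen synthase, was at -0.21.

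In fatty acid metabolism, 16 of 25 beta-oxidation genes were higher, with medians of 0.09 and, in the deposited ratios, -0.06. In all 3 settings 9 were higher (36%) and 7 lower (28%), near the 32.7% and 33.1% of all genes. Acadl, the long-chain acyl-CoA dehydrogenase, stood at 12.63 in the AL heart and 13.24 in the CR heart and was the only member past 1.5-fold. Acadm, the medium-chain enzyme, was at -0.17 and Decr1, needed for unsaturated fatty acids, at -0.38. Cpt1b, which commits fatty acids to oxidation in muscle, was at 0.14 and at -0.04 with the local background subtracted. On the uptake side, Lpl, the lipase that frees fatty acids from lipoproteins, stood at 14.13 in the AL heart and 14.56 in the CR heart, whereas the acyl-CoA binding protein Dbi stood at 11.92 in the AL heart and 11.36 in the CR heart. Fabp3, which carries fatty acids inside heart muscle cells, differed by -1.30, with a signal in the AL heart (16.04) near the limit of the scanner, so the difference is read as at least that size. Ketone body genes differed little, with a median of 0.02 over 7 genes. Creatine and adenylate genes were lower in 10 of 15 (median -0.10, or -0.12 with the local background subtracted), and 10 were lower in all 3 settings (66.7%, against 33.1%). Ak1, adenylate kinase, was at -0.36 and Gamt, which makes creatine, at -0.25, but the abundant muscle creatine kinase Ckm was at 0.50. Of the amino acid genes, Got2, the mitochondrial aspartate aminotransferase, was highest at 0.58 and Mtr, methionine synthase, lowest at -0.42.

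Mitochondrial genes outside the respiratory chain differed by class. Genes that shape mitochondria and guard their proteins were higher in 20 of 28 (median 0.18, or 0.12 with the local background subtracted), although none was 1.5-fold apart. Trap1, the mitochondrial Hsp90, stood at 8.60 in the AL heart and 9.14 in the CR heart, Clpx, the unfolding partner of a matrix protease, at 9.70 in the AL heart and 10.22 in the CR heart, and Pink1, the kinase that marks damaged mitochondria, at 11.31 in the AL heart and 11.84 in the CR heart. All 3 were higher in all 3 settings. Fundc1, a receptor for mitophagy, was the lowest at -0.37. Mitochondrial ribosome genes were lower in 48 of 74 (median -0.08, -0.01 with the local background subtracted and -0.18 in the deposited ratios), and 31 were lower in all 3 settings (41.9%). Mrpl34 (9.31 in the AL heart and 8.68 in the CR heart) was the only one of them at least 1.5-fold lower, and Mrps31 lay at the other end with 0.45. Carriers were lower in 23 of 39 (median -0.06). The ADP/ATP carriers differed in sign, with Slc25a4, the main form of the heart, at -0.34 and Slc25a5 at 0.61. Slc25a3, the phosphate carrier, was at 0.55, Slc25a12, the aspartate/glutamate carrier, at 0.53, and Ucp2 at -0.62.

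In the contractile apparatus, most genes of the myosin filament were higher in the CR heart, while its ventricular light chains were lower. Of 15 genes of the myosin filament, 13 were higher and 2 lower (median 0.43, 0.23 with the local background subtracted and 0.35 in the deposited ratios). Their summed signal over the blanks went the other way, with 84800 scanner units in the AL heart and 65200 in the CR heart. The CR sum was scaled to the AL channel by a constant, without loess. Myl2, with an AL spot of 65200 scanner units, was by far the brightest of these genes and made up most of the AL sum. A sum without Myl2 was not taken, so these sums do not describe the other members. Myh7, the slow myosin heavy chain, stood at 6.57 in the AL heart and 7.45 in the CR heart, and Myh6, the fast chain of the adult mouse heart, at 12.57 in the AL heart and 13.86 in the CR heart. Myom2, a myomesin of the M-band, was higher by 1.02, Mybpc3, the cardiac myosin-binding protein C, by 0.80, and the giant protein titin (Ttn) by 0.43. The 2 lower members were the light chains Myl2 (-0.63, a bound, since its spot was near the scanner limit in the AL heart) and Myl3 (-0.67), and both were lower in all 3 settings. The atrial light chains Myl4 and Myl7 were near 0, at 0.04 and 0.05. On the thin filament 12 of 17 genes were higher (median 0.17). Nebl (nebulette), which anchors actin at the Z-disc, stood at 8.41 in the AL heart and 9.39 in the CR heart, Nrap, a scaffold of myofibril assembly, at 7.60 in the AL heart and 8.34 in the CR heart, and Lmod2, which lengthens actin filaments, at 10.34 in the AL heart and 10.98 in the CR heart. Tpm1, the main tropomyosin, was the lowest at -0.38.

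Genes of the intercalated disc, which joins heart muscle cells end to end, were higher in 19 of 24 (median 0.17, or 0.13 with the local background subtracted), and 15 were higher in all 3 settings (62.5%). Dsp, desmoplakin, the link from desmosomes to desmin, stood at 9.68 in the AL heart and 10.27 in the CR heart. The desmosomal plakophilin Pkp2 was higher by 0.46, the gap junction protein connexin 43 (Gja1) by 0.46, N-cadherin (Cdh2) by 0.36 and desmoglein 2 (Dsg2) by 0.32. Desmin (Des) itself, the intermediate filament that desmoplakin links to desmosomes, was higher by 0.84. In the Z-disc and costamere list 20 of 33 were higher (median 0.08), and 12 were so in all 3 settings (36.4%). Ankrd1 and Des were past 1.5-fold in all 3 settings. Cav3, the muscle caveolin, was at -0.45 and Fhl1, a LIM protein, at -0.44. Nexn was at 1.26 but at -0.88 with the local background subtracted. Calcium handling genes had a median of 0.00, and 22 of 40 were higher. Rrad, an inhibitor of the L-type calcium channel, was highest at 0.50, Rcan1, a calcineurin inhibitor, lowest at -0.35, and the calcium pump Atp2a2 was at -0.26. Ion transport genes had a median of -0.02, from Kcnip2, a subunit of the transient outward potassium channel, at 0.34 to Fxyd1 (phospholemman), which regulates the sodium pump, at -0.32.

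**Figure D4:**
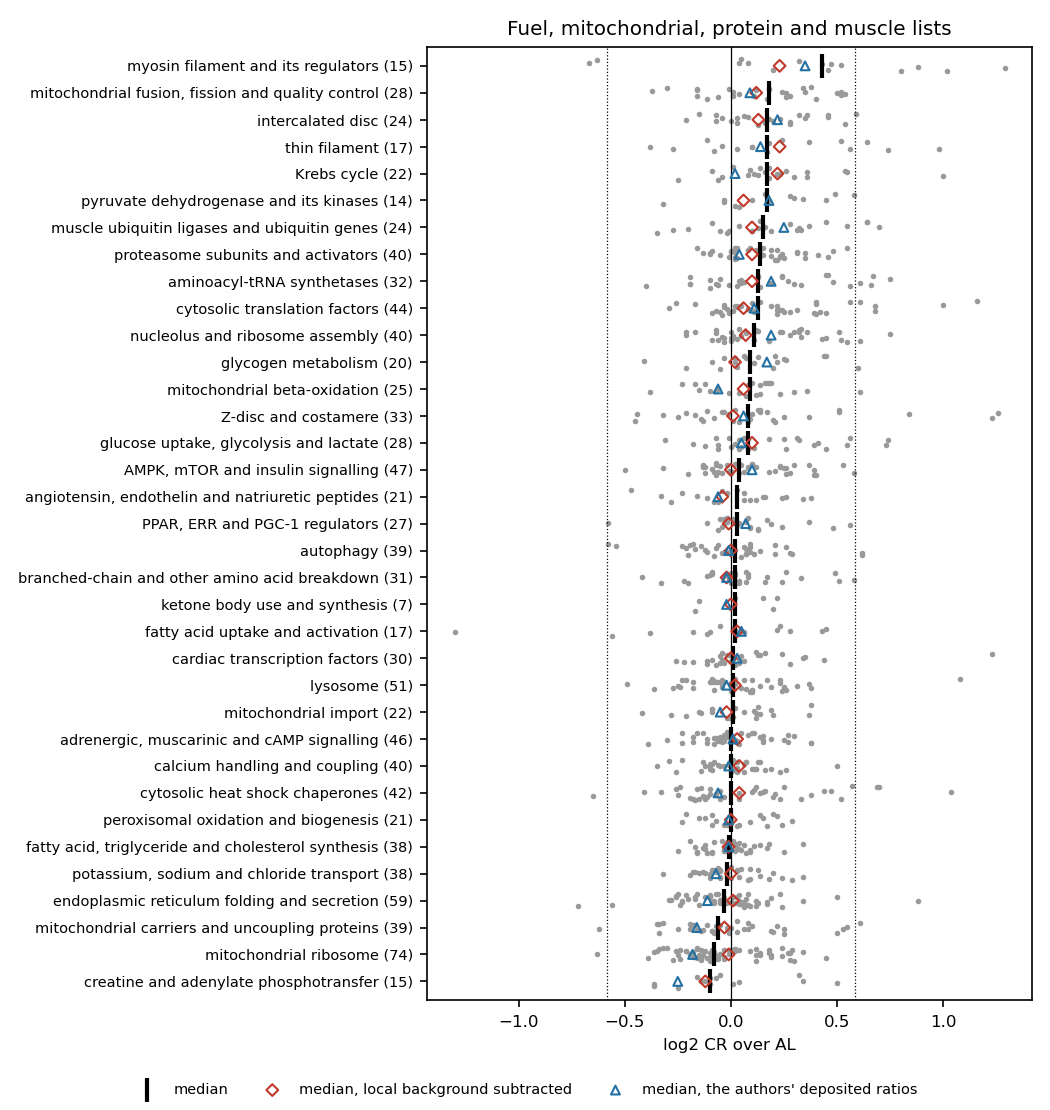
Log2 CR over AL (horizontal) of the members (grey points) of 35 fuel, mitochondrial, protein and muscle lists, with the number of genes compared in brackets. Black bars are medians, red diamonds medians with the local background subtracted and blue triangles medians of the deposited ratios. The myosin filament has the highest median (0.43) and the creatine and adenylate list the lowest (-0.10), and only a few points per list lie past the dotted lines at 1.5-fold.

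Among signalling lists, genes of TGF-beta and BMP signalling were lower in 25 of 40 (median -0.05), and 18 were lower in all 3 settings (45%). The members with the largest negative values included direct targets of BMP signalling: Smad6, its inhibitor, stood at 8.68 in the AL heart and 8.09 in the CR heart, Id3 at 9.79 in the AL heart and 9.30 in the CR heart and Id1 at 8.92 in the AL heart and 8.51 in the CR heart. Id2 was at -0.42, and the endothelial receptors Eng and Acvrl1 at -0.35 and -0.32. The ligands Bmp2, Bmp4 and Tgfb1 were at -0.12, 0.16 and -0.04. Wnt, Notch and Hippo genes were lower in 25 of 41 (median -0.03), with the Notch target Hey1 at -0.44. In the insulin, AMPK and mTOR list (median 0.04), Igf2 was lowest at -0.50, Ddit4, an mTOR inhibitor, was at 0.53, and Sesn1, another, at 0.58 but at -0.05 with the local background subtracted.

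In the nucleus, splicing factors were higher in 34 of 53 (median 0.08, or 0.12 with the local background subtracted), and 30 were higher in all 3 settings (56.6%). Cirbp, an RNA-binding protein induced by cold, stood at 8.83 in the AL heart and 9.76 in the CR heart, and Hnrnpa2b1, an abundant hnRNP, at 10.47 in the AL heart and 11.13 in the CR heart. Clk1, a kinase of splicing factors, was higher by 0.65, Prpf19, of the spliceosome, by 0.68, and Rbfox1, a muscle and neuronal splicing regulator, by 0.60. All 5 of these were higher in all 3 settings and none of the list was 1.5-fold lower. Genes of NAD metabolism had a median of 0.06, and 13 of 26 were higher in all 3 settings (50%). Nampt, which makes NAD from nicotinamide, stood at 9.49 in the AL heart and 10.12 in the CR heart, and Sirt5, a mitochondrial deacylase, at 8.24 in the AL heart and 8.80 in the CR heart. Nnt, the mitochondrial transhydrogenase, was higher by 0.57. C57BL/6J mice carry a deletion within Nnt, so a signal from its probe does not show a working protein. Sirt1, the gene that the matching knockout lacks in cardiomyocytes, stood at 7.14 in the AL heart and 7.55 in the CR heart, a difference of 0.41 that was 0.12 with the local background subtracted. Among regulators of mitochondrial genes, the corepressor Ncor1 was highest at 0.56 and Rxrg, a retinoid X receptor, lowest at -0.58. Of the iron and haem genes, Cp (ceruloplasmin), which oxidizes iron, stood at 7.50 in the AL heart and 8.40 in the CR heart, the metallothionein Mt2 at 8.66 in the AL heart and 9.22 in the CR heart and Mb (myoglobin) at 15.80 in the AL heart and 15.07 in the CR heart.

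The remaining lists had medians close to that of all genes and no member past 1.5-fold, apart from Ankrd1 among the cardiac transcription factors. Peroxisomal genes ran from Hsd17b4, a beta-oxidation enzyme, at 0.29 to Pex11a, which divides peroxisomes, at -0.23. Lipid synthesis ran from Plin3 (0.34) to Plin5 (-0.25), both proteins of the lipid droplet surface. Mitochondrial import ran from Mtx2 (0.38) to Timm17b (-0.42). Among adrenergic and cAMP signalling genes, Prkar1a, the regulatory subunit of protein kinase A, was at 0.38 and the G protein subunit Gng11 lowest at -0.39. Among the natriuretic and angiotensin genes, Nppb, the B-type natriuretic peptide, was highest at 0.38 and Aplnr, the apelin receptor, lowest at -0.47. Hand2, a transcription factor of heart development, was at 0.44, and Srf, which drives muscle genes, lowest of its list at -0.26. Of the kinase and immediate early genes, Ier3 was at 0.47 and Fosb at -0.38, and of the apoptosis and p53 genes Gadd45a, a sensor of DNA damage, was at 0.58 and Endog, a mitochondrial nuclease, at -0.43. The cell cycle list ran from Ccnd2 (cyclin D2) at 0.58 to Cenpa, the histone of centromeres, at -0.48, at signals of 10.70 in the AL heart and 10.23 in the CR heart. Chromatin genes ran from H3f3b (0.46) to Hdac5 (-0.34), hormone receptors from Rora (0.40) to Nr1h3, the liver X receptor alpha, (-0.40), and vessel tone from Cav2 (0.30) to Ptgs1, a cyclooxygenase (-0.45). Hypoxia genes ran from Egln1 (0.28) to Egln3 (-0.32), both oxygen-sensing hydroxylases, and lipoprotein receptors from Vldlr (0.33) to Stab1 (-0.28).

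The marker lists show which cells these hearts held. Heart muscle markers were bright in both, with Tnnt2 at 15.22 in the AL heart and 15.40 in the CR heart, and 13 of 13 markers on the array were measured in both hearts. Their summed signal over the blanks was 232000 scanner units in the AL heart and 199000 in the CR heart. In all sums of markers the CR signal was scaled to the AL channel by a constant, without the loess used for the log2 values. Myl2, with an AL spot near the scanner limit, was the brightest of the heart muscle markers. Without Myl2 the sums were 167000 in the AL heart and 163000 in the CR heart. All 8 atrial markers on the array were measured in both hearts too, with sums of 3430 and 3240. Fibroblast markers were lower in 11 of 14 (median -0.24, -0.13 with the local background subtracted and -0.49 in the deposited ratios), and their sums were 11000 and 7530. The 2 past 1.5-fold were the collagen Col3a1 at -0.87 and the matrix protein Fbln1 at -0.60, or -0.16 with the local background subtracted. Dpt and Dcn, both matrix proteins of fibroblasts, were at -0.58 and -0.35, whereas the fibroblast transcription factor Tcf21 was at 0.02 and Postn, a marker of activated fibroblasts, at 0.01. Macrophage markers were lower in 11 of 14 (median -0.09, -0.02 with the local background subtracted and -0.42 in the deposited ratios), with sums of 1390 and 998, and Itgam was above the blanks in neither heart. Epicardial markers were lower in 5 of 6 (medians -0.16, -0.12 and -0.79 in the same order, sums 144 and 75.9), with Upk3b at -0.63 and Msln at -0.38, and Lrrn4 and Tbx18 above the blanks in neither heart. The part of these cells in the lower values of the TGF-beta and BMP list was not tested.

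Endothelial markers showed no common direction, with 8 higher and 7 lower of 15 and sums of 16200 and 16200. Without Fabp4, the brightest of them, the sums were 6080 in the AL heart and 5430 in the CR heart. Cldn5, a tight junction protein, was at -0.63 and Flt1, a VEGF receptor, at 0.55. Smooth muscle and pericyte markers were higher in 11 of 13, with sums of 3580 and 4940. Des, which heart muscle also makes, was the brightest of them, and without it, a sum taken after the values were seen, they came to 1790 and 1980. Acta2, the actin of smooth muscle, was at 0.17. Markers of T and NK cells (103 and 104), B cells (194 and 173), neutrophils (221 and 253) and mast cells (53.2 and 54.9) had low sums in both hearts, and Cd2, Nkg7, Pax5, Mpo, Tpsb2 and Ms4a2 were above the blanks in neither. Of 13 skeletal muscle markers on the array, 9 were above the blanks in both hearts (sums 964 and 912), and Myh1 and Atp2a1 in neither. Of 8 lung markers on the array, 3 were above the blanks in both hearts (sums 27.3 and 31.6), and Sftpb, Foxj1 and Nkx2-1 in neither. Cardiomyocyte markers as a list had a median of 0.18, which was -0.07 in the deposited ratios, so their direction depended on the setting.

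**Figure D5:**
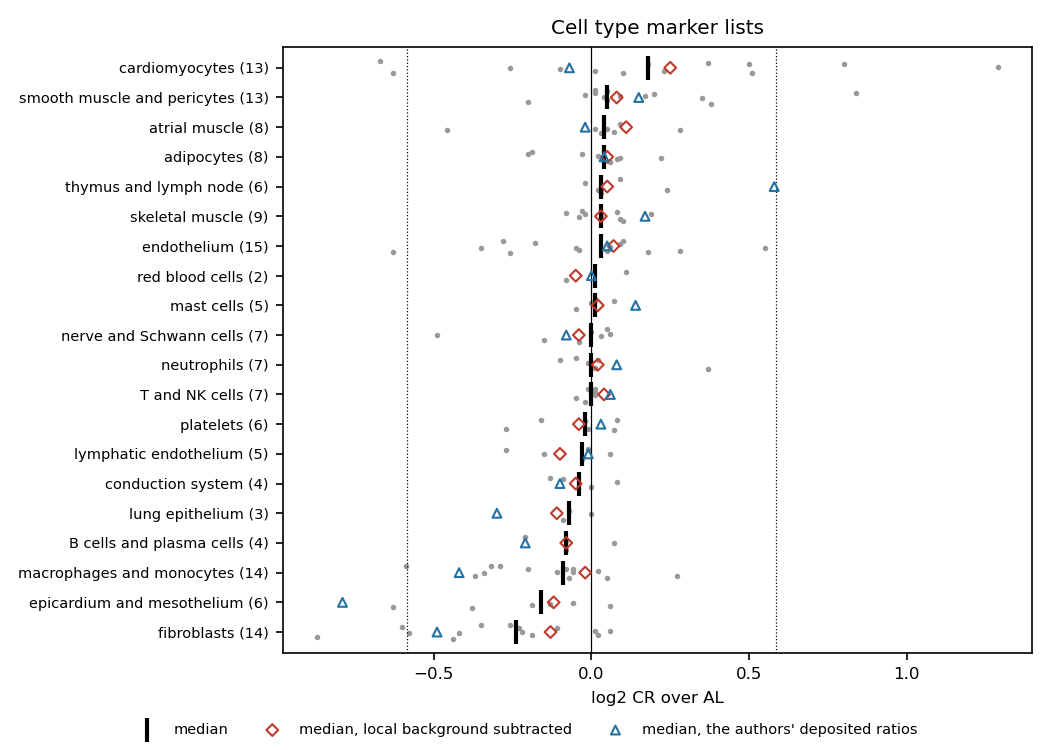
Log2 CR over AL (horizontal) of markers of 20 cell types and tissues, drawn as in the plot of pathway lists. Fibroblasts have the lowest median (-0.24) and cardiomyocytes the highest (0.18), and for lists of few dim markers, such as thymus and lymph node, the deposited ratios lie far from the other medians.

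Genes above the blanks in 1 heart only gave bounds that were small. Lepr, the leptin receptor, above the blanks in the CR heart only, was at least 1.17-fold higher there, and Tmprss13, above them in the AL heart only, at least 1.17-fold lower in the CR heart. Clone, model and unmatched names aside, no other gene of either kind had a larger bound. Each bound sets the signal of 1 heart against the higher of the lowest measured signal and the gene's own signal in the other heart.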

How the data were processed

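RNA of 1 CR heart (Cy3) and 1 AL heart (Cy5) of control mice shared 1 two-colour array. The deposited scanner files give median spot and surrounding intensity per channel in scanner units, from scans at 3 gains per the file headers, with no normalization. The authors' deposited log2 ratios are described as normalized in the labels, and 17404 of 17405 values lay within 0.001 of the log2 ratio of blank-subtracted signals plus a constant, so their direction is CR over AL and their centre is the median. Scanner software and array version are not stated in the labels or file headers. Labelled RNA had been amplified linearly before coupling of the dyes, per the labels' protocols.

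Signals were corrected with normexp (offset 50) without local background, normalized with loess (limma 3.58.1, R 4.3.3) and centred on the genes compared. The normalization of the first setting was tested on simulated spots. A probe was above background at 2 SD over the mean of 2736 blank spots in its channel (80.7% of 23473 probes in the AL channel, 77.8% in the CR channel), and the median signal of such probes over the blanks was 30.0 and 41.8 scanner units. The brightest of several probes stood for a gene. Of 16631 probes with 1 symbol, 12622 symbols were current in the RefSeq gene table (GRCm38.p6), 3947 were updated from synonyms and 62 were unmatched. A further 6842 probes had no symbol here. Log2 signals of each heart are the mean normalized signal with the log2 ratio split evenly between them. With 1 array there is no test, SD or p-value, and the number of arrays limits the precision.

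Genes named are the 25 highest and 25 lowest by the smallest value over 3 settings among genes of at least median signal, the extreme members of each list, and bounds for genes above the blanks in 1 heart. The members and lists were chosen with earlier results of these data known. The first promoter listed for a symbol was used.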

Additional observations from a re-analysis of the deposited data

How the results depend on the processing

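The number of genes past 1.5-fold depended on how dim signals were treated. It was 100 higher and 46 lower as reported, 468 and 289 with a normexp offset of 0, 1128 and 561 with the blank mean subtracted and no loess, and again 1128 and 561 in the authors' deposited ratios. Subtraction of the local background gave 156 lower genes, and median centring in place of loess 173 higher. At 2-fold, the reported 10 higher and 3 lower became 18 and 30 with the local background subtracted, 45 and 27 with an offset of 0, and 287 and 89 both with the blank mean subtracted and in the deposited ratios. Loess within blocks, no centring, other detection filters, the mean over probes and leaving out spots near the scanner limit gave between 97 and 104 higher and between 43 and 49 lower genes at 1.5-fold.

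Of the genes past 1.5-fold as reported, 46 of 100 higher and 25 of 46 lower stayed past it with the local background subtracted, and 85 and 46 did in the deposited ratios. With the local background subtracted, Eif3c was at -1.09, Mars1 at -0.082 and Nexn at -0.88, and of all 100 higher genes 8 turned. The median of the cardiomyocyte markers was -0.066 with the blank mean subtracted and in the deposited ratios. Of the genes named, 4 had several probes that differed, and with the mean over probes Eif3j1 was at 0.43, Hspa8 at -0.16, Ttn at 0.70 and Unc45b at 0.29. The cause of these turns was not tested. In the dimmest 4 of 10 equal groups of genes by signal, 0 genes passed 1.5-fold, so differences of dim genes were not detectable at these signals in the reported setting. No paired analysis was possible because the comparison holds 1 array and no test.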

Other observations

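Another group of genes stood out among the 100 that were at least 1.5-fold higher and belonged to no list above: Mthfd2 (6.30 in the AL heart and 7.28 in the CR heart), a mitochondrial enzyme of one-carbon metabolism, Chac1 (6.39 in the AL heart and 7.12 in the CR heart), which degrades glutathione, and Asns (6.19 in the AL heart and 6.81 in the CR heart), asparagine synthetase. All 3 are known targets of Atf4, the transcription factor of the amino acid response, as are several aminoacyl-tRNA synthetases. A list of 37 such genes was therefore written after these values were seen, and it includes the genes that prompted it, so its counts are a description and support nothing. Of 33 compared, 23 were higher and 10 lower (median 0.10, 0.08 with the local background subtracted and 0.22 in the deposited ratios). In all 3 settings 19 were higher and 7 lower, where the shares over all genes compared were 32.7% and 33.1%. Other members included Ddit4 (0.53), Herpud1 (0.50), Cebpb (0.40), Atf5 (0.38) and Psat1 (0.27), the serine synthesis enzyme. The stress hormone Gdf15 was at -0.07, Trib3 at -0.07, Ddit3 (CHOP) at 0.01 and Atf3 at -0.22. Atf4 itself was at 0.05. The 3 leading genes were much closer to 0 with the local background subtracted, at 0.37, 0.14 and 0.17, and farther from it in the deposited ratios, at 2.14, 1.58 and 1.74.

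Ppat and H19 were also picked after their values were seen. Ppat, which opens purine synthesis, was at 0.78 and 0.16 with the local background subtracted. H19, an imprinted noncoding RNA next to Igf2, was at -0.86 beside -0.50 for Igf2.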
